A study of Mus musculus with 6 samples.

Results

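The 9 genes described here, Lrat, Rbp4, Stra6, Crabp1, Crabp2, Aldh1a1, Aldh1a2, Rdh10 and Adh7, handle vitamin A (retinol) in the cell. They were taken by symbol from the gene rows of 6 single-cell count tables. All 9 had a row in every table, of 30828 to 32285 gene rows. The study asked how Pdgfra+ FBs differ in normal and fibrotic lung and how they support alveolar type 2 epithelial cells (AEC2s). Each condition was 1 library of cells pooled from 3 mice, so no value has a replicate and none was tested between conditions.

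All FB donors were male Pdgfra-GFP mice, 10 to 14 weeks old, which carry a GFP reporter in the Pdgfra locus. GFP+ cells were sorted, yet the lung libraries also held 21 to 286 immune, 2 to 55 endothelial and 1 to 34 epithelial barcodes each. In the single-dose experiment, mice received 1 oropharyngeal dose of PBS (50 ul) or of bleomycin, which injures the alveolar lining and is followed by fibrosis, and lungs were taken on day 14. The dose is 2 U/kg in the protocol and 4 U/kg in the treatment label of this library. In the repetitive experiment, mice received 3 weekly doses of PBS or of bleomycin, the last of 0.5 U/kg and both others of 1 U/kg, with harvest 14 days after the last dose. In the organoid experiment, GFP+ FBs from PBS mice (normal) or from mice given 2 U/kg bleomycin (fibrogenic) were grown for 2 weeks in Matrigel with tomato+ AEC2s. The labels give 10 AEC2s to 1 FB, whereas the methods of the study give an excess of FBs. The AEC2s came from tamoxifen-induced (2 doses of 1 mg/kg) SpcCreER mice, in which the surfactant protein C promoter drives the recombinase; tomato marks AEC2s and their descendants.

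Retinol travels in blood bound to the product of Rbp4 and can enter cells through the receptor encoded by Stra6. Inside the cell, the enzyme made from Lrat turns it into retinyl esters, the storage form kept in lipid droplets. Rdh10 and, by a separate route, the alcohol dehydrogenase Adh7 oxidise retinol to retinal, and the retinal dehydrogenases Aldh1a1 and Aldh1a2 make retinoic acid from it. Retinoic acid binds nuclear receptors that switch genes on. Crabp1 and Crabp2 encode its cytoplasmic carriers. Lipofibroblasts (LipoFBs) of the alveolar wall are known for lipid droplets and retinoid stores, and retinoic acid is known for its part in alveolar growth.

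In the GRCm38 assembly (GENCODE M21), Lrat lies at chr3:82892579-82903973, minus strand; Crabp2 at chr3:87948666-87953376, plus strand; and Adh7 at chr3:138217760-138233382, plus strand. Crabp1 (chr9:54764748-54773110, plus strand), Stra6 (chr9:58063788-58153996, plus strand) and Aldh1a2 (chr9:71215789-71296243, plus strand) share chromosome 9. Aldh1a1 (chr19:20492715-20643465, plus strand) and Rbp4 (chr19:38116629-38125281, minus strand) share chromosome 19, and Rdh10 lies at chr1:16105774-16133734, plus strand. Aldh1a7, at chr19:20692953-20727562, minus strand, is the neighbour and close copy of Aldh1a1. Its longest coding transcript matched that of Aldh1a1 at 89.3% of aligned bases, and their last 300 bases at 83.6%, where the 3′ reads of the assay fall. In FBs of the 4 lung libraries, Aldh1a7 was counted at 0 to 0.338 CPM, so few reads were assigned to it there.

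RefSeq promoter windows (GRCm38.p6, 250 bases before to 50 after a start site) were on hand for 7 of the 9 genes; Crabp2 and Rdh10 were among those with none. The 120 bases before the start are shown for 3 members whose levels the results turn on and, beside them, for Rarb, the receptor gene that is the textbook target of retinoic acid. They are written 5′ to 3′ on the strand of the gene. Rbp4 had 2 windows, with different start sites. The stretch shown is from the window that holds TATAAA, and it lies inside the span given for the gene. In the other Rbp4 window, chr19:38125272-38125571, the search matched only a CCAAT on the opposite strand.

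Capitals mark the direct-repeat retinoic acid response element (DR5) in Rarb, CCAAT in Lrat and Aldh1a2, and TATAAA in Rbp4.
Rarb (chr14:16575477-16575596, minus strand): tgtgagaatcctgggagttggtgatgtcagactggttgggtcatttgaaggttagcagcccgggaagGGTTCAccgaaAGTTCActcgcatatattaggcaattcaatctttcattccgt
Lrat (chr3:82903975-82904094, minus strand): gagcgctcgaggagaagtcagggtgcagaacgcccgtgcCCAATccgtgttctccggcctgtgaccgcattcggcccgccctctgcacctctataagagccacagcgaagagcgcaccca
Rbp4 (chr19:38124812-38124931, minus strand): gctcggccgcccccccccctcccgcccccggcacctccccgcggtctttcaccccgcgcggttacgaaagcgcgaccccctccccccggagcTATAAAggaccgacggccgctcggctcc
Aldh1a2 (chr9:71215669-71215788, plus strand): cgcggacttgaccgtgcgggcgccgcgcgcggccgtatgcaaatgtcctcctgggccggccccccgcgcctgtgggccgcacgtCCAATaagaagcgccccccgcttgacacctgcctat

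The DR5 search read both strands of the 300-base windows. It matched 0.0974% of 32851 windows, among them that of Rarb and none of the members. CCAAT was in 37.4% of windows and TATAAA in 13.6%. No marked CCAAT or TATAAA overlaps another motif searched, whereas the DR5 match in Rarb holds AGTTCA, a half-site that 14% of windows hold; the other half-site searched, AGGTCA, was in 16.3%. These matches describe the letters of the windows and do not locate a bound site.

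The tables hold 1015 to 10737 barcodes per library, with a median of 2478 to 36841 unique molecular identifiers (UMIs, each one captured RNA molecule). The repetitive bleomycin library was the shallowest: 43.7% of its barcodes held under 2000 UMIs, against 5.31% in repetitive PBS. A barcode was called an FB where at least 3 of 5 general FB markers (Pdgfra, Col1a1, Col1a2, Mfap4, Bgn) and fewer than 3 markers of any other lineage were present. This left 873 and 774 FBs in the single-dose libraries, 5179 and 8483 in the repetitive ones and 2040 and 3717 in the organoids, PBS or normal first. FBs were assigned to LipoFB, matrix FB (MatrixFB, the adventitial type), injured FB, myofibroblast (MyoFB), cycling (PMP) or peribronchial subsets by marker lists that hold none of the 9 genes. Between 5.16% and 16% of the FBs of each lung library lay near the line between subsets, and 27.4% and 28.3% of those of the fibrogenic and normal organoids. FBs that tied between subsets or had too few markers of any are not in those shares and count only among FBs as a whole. Ties were 2.98% and 8.4% of FBs in the single-dose libraries and 2.47% and 9.02% in the repetitive ones, PBS first. FBs with too few markers were 0.573% and 1.94%, then 0.251% and 8.18%. In normal and fibrogenic organoids they were 13% and 20.3%. Pairs of libraries shared 0 to 30 barcodes, at most 0.456% of the smaller library.

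Levels are UMIs of a gene per 1000000 UMIs summed over the cells named (CPM), followed in parentheses by the exact 95% Poisson interval. The interval covers counting error only, not the spread between mice. Shares of cells with a UMI depend on depth, so they are also given after each cell was thinned to 2000 UMIs, without cells below that depth. Immune barcodes serve as the measure of free RNA. Those with at least 3 general FB markers were set aside as mixed, so the level read from the rest can be too low. RNA made by the immune cells themselves is not told apart from it. The single-dose libraries held 39 and 21 of them, PBS first. On a floor of 3 counts, a count of 0 there allows up to 16.7 and 38.7 CPM, and the exact Poisson limit is somewhat higher. Lower FB levels of a gene were not detectable as above free RNA in those libraries. The reads come from the 3′ end of each transcript, so CPM values are not scaled by gene length.

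In PBS lung, the storage gene Lrat and the retinal dehydrogenase gene Aldh1a1 were higher in LipoFBs than in MatrixFBs, whereas Rbp4, Adh7 and Aldh1a2 were higher in MatrixFBs, and the order was the same in both PBS libraries. Only these 2 subsets held at least 20 cells there: 649 LipoFBs and 185 MatrixFBs in single-dose PBS, and 3855 and 1169 in repetitive PBS. Of the 9 genes, 6 had the same higher subset in both libraries, Rdh10 being the sixth. Crabp1 did not, and Stra6 and Crabp2 had no UMI in single-dose PBS FBs. With 2 subsets compared and no such count made over all genes, the 6 are not read as a trait of these genes.

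Lrat, which makes retinyl esters, stood in single-dose PBS at 241 (227 to 256) CPM in LipoFBs and 138 (119 to 160.0) CPM in MatrixFBs. In repetitive PBS it stood at 243 (238 to 248) and 121 (115 to 128) CPM. The LipoFB intervals lay above the MatrixFB intervals in both libraries, and the 2 libraries gave nearly one value per subset. After thinning, 32.2% and 30.9% of LipoFBs held a Lrat UMI, against 2.26% and 1.41% of immune barcodes. Before thinning the shares were 57.5% (53.6 to 61.3) and 67.7% (66.2 to 69.2) against 2.56% (0.0649 to 13.5) and 1.71% (0.468 to 4.32), with exact 95% Clopper-Pearson intervals, at median depths of 6865 and 10737 against 2875 and 3932 UMIs. Lrat was unevenly spread among LipoFBs. The 10% of repetitive PBS LipoFBs with most Lrat held 45.1% of its UMIs, with up to 57 in one cell. The same share for Aldh1a1 was 25.9%, but the median cell held 1 UMI of Lrat and 16 of Aldh1a1. Such a share is larger at low counts, so the 2 shares do not compare the spread of the genes.

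Aldh1a1 reached 1553 (1516 to 1590.4) CPM in LipoFBs and 656 (612 to 701) CPM in MatrixFBs of single-dose PBS. The values in repetitive PBS were 1689 (1677 to 1702) and 769.5 (754 to 785) CPM. Nearly every LipoFB carried it: 98.8% (97.6 to 99.5) and 99.3% (99 to 99.6) held a UMI, or 90.1% and 91.2% after thinning. Immune barcodes held 61.3 (30.6 to 109.7) and 29.4 (21 to 40.1) CPM of Aldh1a1, with 13.8% and 6.16% of them positive after thinning. These values were taken as the free-RNA level for the gene.

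Rbp4, the retinol carrier, showed the opposite order. It stood at 447 (411 to 485) CPM in MatrixFBs and 37 (31.5 to 43.2) CPM in LipoFBs of single-dose PBS, and at 407 (396 to 418) and 35 (33.2 to 36.8) CPM in repetitive PBS. Adh7 followed it, at 115 (97.3 to 135) CPM in MatrixFBs and 8.23 (5.76 to 11.4) CPM in LipoFBs of single-dose PBS and at 104 (97.9 to 109) and 5.95 (5.24 to 6.72) CPM in repetitive PBS. Both genes were well above their LipoFB level in each library. Aldh1a2 was almost confined to MatrixFBs among the PBS FB subsets: 27 of its 28 FB UMIs in single-dose PBS and 233 of 240 in repetitive PBS were in MatrixFBs, giving 20.9 (13.7 to 30.3) and 18.5 (16.2 to 21) CPM there. LipoFBs held 1 and 5 UMIs. Immune barcodes held 11.2 (1.35 to 40.3) CPM of Aldh1a2 in single-dose PBS, on 2 UMIs, an interval that covers the MatrixFB level there, and 0.736 (0.0186 to 4.1) CPM in repetitive PBS, below it.

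Rdh10 differed little between the subsets, with 6.4 (4.25 to 9.25) CPM in LipoFBs against 12.3 (7.06 to 20.1) in MatrixFBs of single-dose PBS, intervals that overlap, and 9.38 (8.49 to 10.3) against 12.5 (10.6 to 14.6) in repetitive PBS. The retinol receptor gene Stra6 and the carrier genes Crabp1 and Crabp2 were at or near the detection limit. Stra6 had no UMI in the 873 FBs of single-dose PBS, a floor of 3 cells that allows up to 0.344% of cells with a UMI and does not limit the cells that express it, and 3 UMIs in the 5179 FBs of repetitive PBS. Crabp2 had 0 and 21 UMIs. Crabp1 came from few cells. In single-dose PBS, 12 LipoFBs held all 29 UMIs and one held 10 of them; in repetitive PBS, 3 MatrixFBs held 18 of 28 UMIs. The order of the subsets for Crabp1 thus rests on a handful of barcodes and turned between the libraries.

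**Figure D1:**
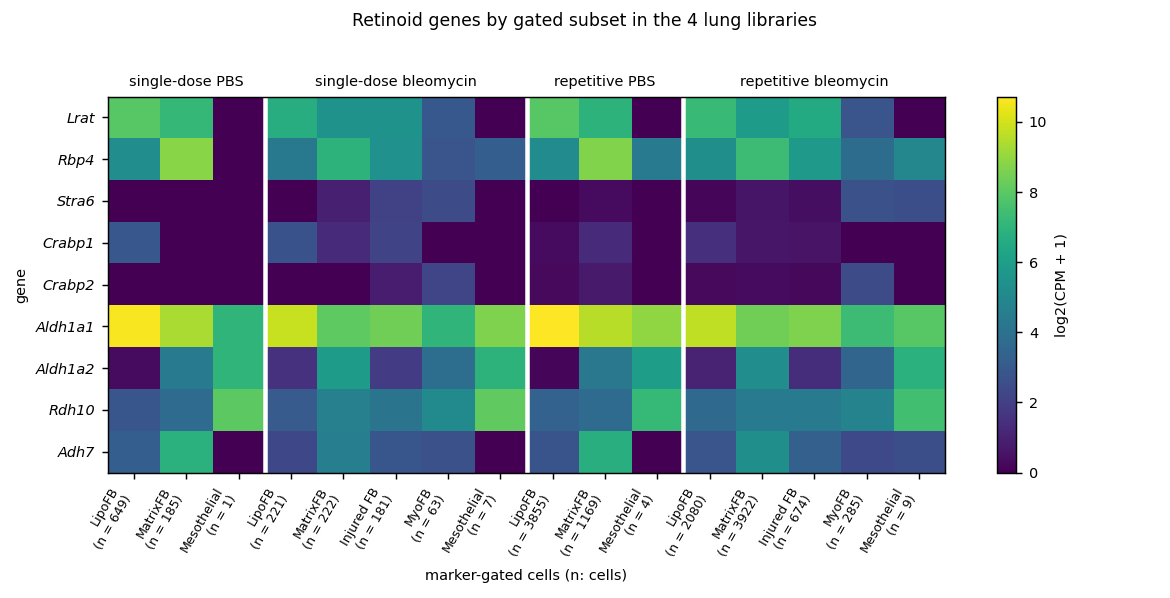
Level of each of the 9 genes, as log2(CPM + 1) by colour, in marker-gated subsets of the 4 lung libraries (columns; n gives the cells, and subsets with fewer than 20 cells are left out apart from mesothelial cells). Lrat and Aldh1a1 are brightest in LipoFBs, Rbp4 and Adh7 in MatrixFBs, and Rdh10 and Aldh1a2 stand out in the few mesothelial cells, where Lrat has no UMI.

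Within MatrixFBs, the 9 genes did not travel together. In both PBS libraries, cells with Rbp4 held more Adh7 and less Lrat, and in repetitive PBS cells with Aldh1a2 held less Lrat. In repetitive PBS, the 679 MatrixFBs with an Rbp4 UMI had 148 (139.8 to 158) CPM of Adh7, and the 490 without one had 41.7 (36.4 to 47.5). Lrat ran the other way, at 80.8 (74.4 to 87.6) against 177 (166 to 189) CPM. Median depth was 10585 and 10489.5 UMIs in the 2 sets of cells. Single-dose PBS gave the same orders, with Adh7 at 149.8 (123 to 180.2) against 67.6 (47.6 to 93.2) CPM and Lrat at 96.3 (75.3 to 121) against 196 (160.2 to 236), at median depths of 7104 and 7112 UMIs. After a single dose of bleomycin the Lrat intervals overlapped, at 38.6 (27.3 to 53) against 46.7 (35 to 60.9) CPM. After repetitive dosing Lrat was at 49.6 (45 to 54.4) against 67.8 (63.4 to 72.5) CPM, in cells with median depths of 6191 and 2001 UMIs.

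The 126 Aldh1a2-positive MatrixFBs of repetitive PBS held 17.5 (11.2 to 26) CPM of Lrat, against 134 (127 to 141) in the 1043 others, and 328 (299 to 360.0) against 824 (807 to 840.4) CPM of Aldh1a1. They also held less Adh7 (37.2 (27.7 to 48.9) against 112 (106 to 118) CPM) and more Pi16, an adventitial marker (758 (713 to 806) against 407 (395 to 419) CPM). Median depths were 10034 and 10585 UMIs. Of the 2 retinal dehydrogenase genes, Aldh1a2 thus sat in MatrixFBs that were low in Aldh1a1, Lrat and Adh7. In the 2 bleomycin libraries Lrat was again lower in Aldh1a2-positive MatrixFBs, at 11.7 (4.3 to 25.5) against 52.8 (42.2 to 65.2) CPM after a single dose and 12.1 (8.97 to 16) against 71.5 (67.5 to 75.5) after repetitive dosing, though there the positive cells were deeper (medians of 7647 and 2192 UMIs after repetitive dosing).

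In PBS LipoFBs, cells with a Lrat UMI held more Aldh1a1 than those without, 1662 (1614 to 1712) against 1385 (1329.5 to 1441) CPM in single-dose PBS and 1755 (1741 to 1770.1) against 1523 (1501 to 1545) in repetitive PBS. They held less Rbp4, 18.9 (14 to 24.9) against 65 (53.5 to 78.2) and 29.7 (27.8 to 31.7) against 48.3 (44.5 to 52.3) CPM. Rbp4 was clumped there: in both PBS libraries the 10% of LipoFBs with most of it held 100% of its UMIs. One cell held 24 of them in single-dose PBS and one held 59 in repetitive PBS. The intervals do not cover such clumping, so this order rests on few barcodes. The PBS cells with Lrat were somewhat deeper (7183 against 6499 UMIs and 11248 against 9528). After a single dose of bleomycin the Rbp4 intervals overlapped, at 20.7 (14.05 to 29.35) with and 17.4 (10.8 to 26.6) CPM without Lrat. After repetitive dosing Rbp4 was at 25.2 (22.15 to 28.5) against 54.7 (50.1 to 59.6) CPM, at median depths of 11777 and 4615 UMIs. Kcnk2, a potassium channel gene named after its values had been seen, was at 64.1 (54.8 to 74.5) against 44.1 (34.8 to 55.2) CPM in LipoFBs with and without Lrat of single-dose PBS, and at 68.3 (65.5 to 71.3) against 60.6 (56.4 to 65.2) in repetitive PBS. Wif1, a Wnt antagonist gene and peribronchial marker, was at 13.4 (9.95 to 17.6) CPM in MatrixFBs with an Adh7 UMI and 0.342 (0.0705 to 0.999) in those without, in repetitive PBS.

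**Figure D2:**
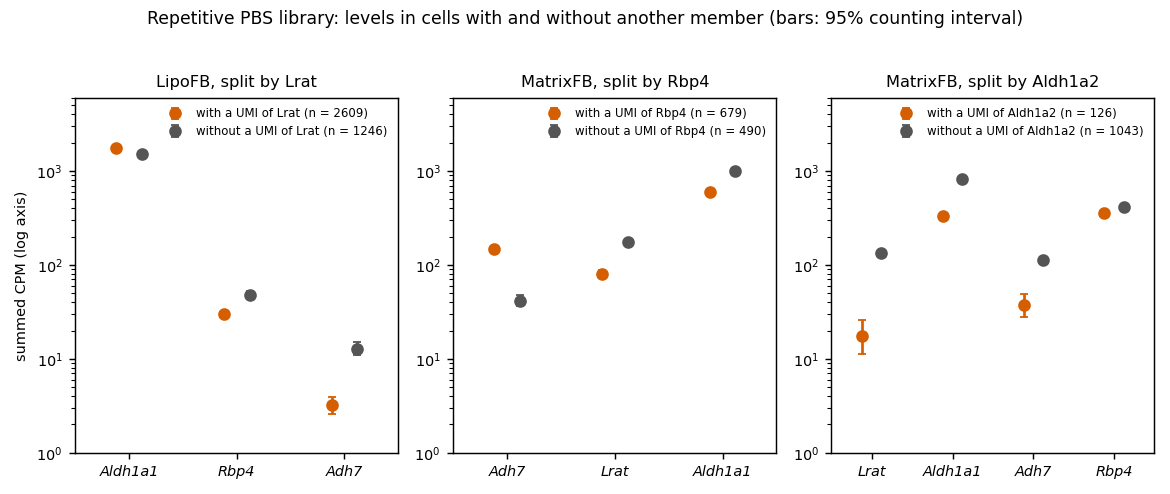
Summed CPM (log axis) of named genes in repetitive PBS cells with (orange) and without (grey) a UMI of Lrat, Rbp4 or Aldh1a2; bars are 95% counting intervals and n gives cells. MatrixFBs with Rbp4 have more Adh7 and less Lrat, and those with Aldh1a2 have 17.5 CPM of Lrat against 134.

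After bleomycin, Lrat and Aldh1a1 were lower in FBs as a whole in both experiments and Aldh1a2 was higher in both. Rbp4 and Adh7 were lower by over 2-fold after the single dose and by less after repetitive dosing. A gene was counted as lower or higher where the log2 ratio of (CPM + 1), bleomycin over PBS, was at least 1 in size, among genes with at least 10 UMIs in both libraries together. With 1 library a condition this marks a size of difference, not a test. In single-dose FBs, 4 of the 8 members with enough UMIs were lower and 3 were higher, where 3.6% of 12928 genes were lower and 9.42% higher. One of the 3, Stra6, had 0 UMIs in PBS and 16 after bleomycin, so it passed the minimum through the bleomycin library alone. With at least 50 UMIs required 2 members were higher, and with each cell weighted alike 1 was. After repetitive dosing 2 of 9 were lower and 1 was higher, where 1.48% of 18741 genes were lower and 5.54% higher. The median log2 ratio of the members was -0.84 after a single dose and 0.11 after repetitive dosing, beside 0.09 and 0.09 over all genes counted. The make-up of the gated FBs moved with these values. LipoFBs were 74.3% of FBs in single-dose PBS and 28.6% after bleomycin, and 74.4% and 24.5% in the repetitive libraries. MatrixFBs went from 21.2% to 28.7% and from 22.6% to 46.2%. In repetitive bleomycin the median depth was 8363.5 UMIs in LipoFBs and 2409 in MatrixFBs, against 10737 and 10564 in repetitive PBS. The part of depth in these shares was not tested. In sums over all FBs, fewer cells of a subset and less RNA per cell cannot be told apart, so each subset is given on its own further on.

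Lrat stood at 220.3 (208 to 233) CPM in FBs of single-dose PBS and 55.3 (50.7 to 60.2) CPM after bleomycin, and at 218 (214 to 222) and 95 (92.6 to 97.6) CPM in the repetitive libraries. Both PBS values were above both bleomycin values. The ratio was 3.98-fold lower (3.6 to 4.41) after a single dose, with the 95% interval in parentheses, and 2.29-fold lower (2.22 to 2.37) after repetitive dosing. Aldh1a1 stood at 1332 (1303 to 1362) and 468 (454 to 481) CPM in the single-dose libraries and at 1472 (1462 to 1482) and 521 (515 to 527) CPM in the repetitive ones. It was 2.85-fold lower (2.75 to 2.96) and 2.83-fold lower (2.79 to 2.86), nearly the same ratio in the 2 experiments.

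Rbp4 went from 139 (129.9 to 149) CPM in single-dose PBS to 55.4 (50.8 to 60.3) CPM after bleomycin, 2.51-fold lower (2.25 to 2.81). In the repetitive libraries it stood at 122 (119 to 125) and 91.8 (89.4 to 94.3) CPM, 1.32-fold lower (1.28 to 1.37), which did not reach the limit. Adh7 did likewise, at 32.1 (27.7 to 37) and 10.6 (8.69 to 12.9) CPM after a single dose, 3.02-fold lower (2.36 to 3.87), and 28.5 (27.1 to 29.9) and 19.4 (18.3 to 20.6) CPM after repetitive dosing, 1.47-fold lower (1.36 to 1.58). Both genes were lower in each experiment, by a larger ratio after the single dose. The 2 experiments differ in dose and schedule and were made as separate libraries, and the difference between their ratios was not tested.

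Aldh1a2, which makes retinoic acid, stood at 4.73 (3.14 to 6.83) CPM in FBs of single-dose PBS and 16.4 (13.9 to 19.1) CPM after bleomycin, and at 4.15 (3.64 to 4.71) and 15.6 (14.6 to 16.6) CPM in the repetitive libraries. It was 3.46-fold higher (2.31 to 5.37) and 3.76-fold higher (3.25 to 4.35), the opposite direction to Aldh1a1 in the same sums over FBs. These sums draw on different subsets. In PBS, LipoFBs held 6795 of 7890 and 73304 of 85084 Aldh1a1 UMIs. MatrixFBs held 27 of 28 and 233 of 240 Aldh1a2 UMIs. Rdh10, the enzyme of the step before, went from 7.77 (5.69 to 10.4) to 19.1 (16.5 to 22.1) CPM after a single dose, 2.46-fold higher (1.77 to 3.48), and from 10.4 (9.55 to 11.2) to 18.2 (17.1 to 19.3) CPM after repetitive dosing, 1.75-fold higher (1.59 to 1.94), under the limit.

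Stra6 appeared after bleomycin at low level. It had no UMI in single-dose PBS FBs and 16 UMIs in 8 FBs after bleomycin, 1.64 (0.935 to 2.66) CPM. That level was 3.23-fold that of a floor of 3 UMIs in the PBS library. The exact interval of the ratio itself begins lower, at 2.335-fold. Of the 16 UMIs, 7 were in 1 cell, and with each cell weighted alike the log2 ratio was 0.86, under the limit. In the repetitive libraries it had 3 and 45 UMIs, a ratio of 14.7 (4.71 to 73.8), although at this level the log2 ratio of (CPM + 1) is only 0.74. Crabp1 did not differ beyond counting error after a single dose, at 4.9 (3.28 to 7.03) and 3.58 (2.49 to 4.98) CPM, and was at 0.484 (0.322 to 0.7) and 0.948 (0.716 to 1.23) CPM in the repetitive libraries. Crabp2 had 0 and 7 UMIs after a single dose, too few to count, and 0.363 (0.225 to 0.555) and 0.474 (0.315 to 0.685) CPM in the repetitive libraries, with overlapping intervals. Pdgfra, the gene of the sort, was itself lower after bleomycin, at 521 and 297 CPM and at 588 and 374 CPM, and Col1a1 was higher, at 866 and 3034 CPM and at 694 and 2810.1 CPM. Markers of other lineages were also read in FBs. The 9 immune markers summed to 18.7 and 48.4 CPM in the single-dose libraries and 4.74 and 189.9 CPM in the repetitive ones, none of the 9 at 0, and the 8 epithelial markers to between 17.1 and 91.3 CPM, with 2 of them at 0 in single-dose PBS. Their part in the results was not tested.

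**Figure D3:**
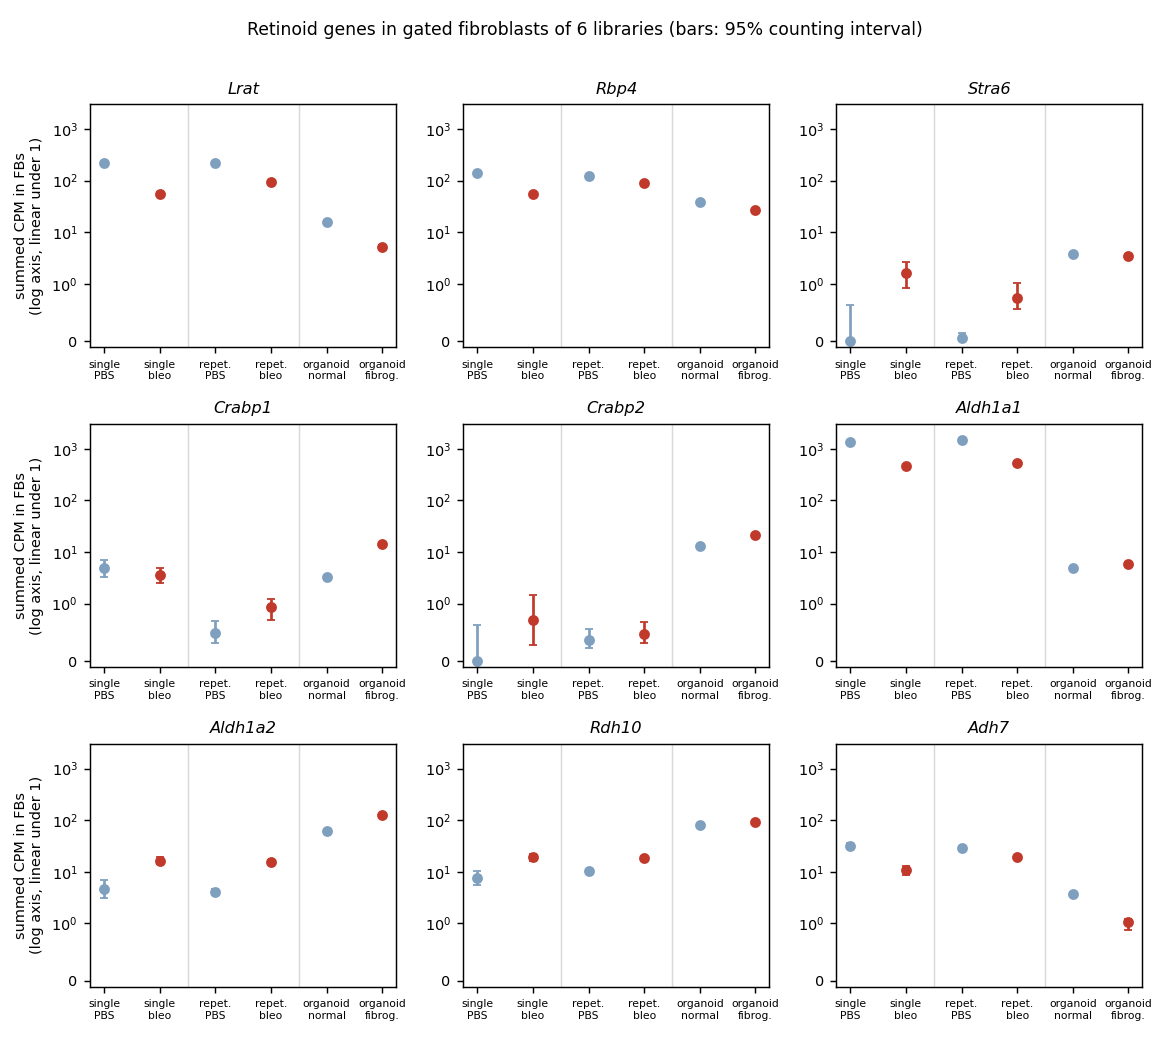
Summed CPM of each gene in gated FBs of the 6 libraries (log axis, linear under 1; blue for PBS or normal, red for bleomycin or fibrogenic; bars are 95% counting intervals, 1 library a point). Lrat and Aldh1a1 are lower and Aldh1a2 higher in red in both lung experiments, and Aldh1a1 stands at 468 CPM or more in every lung library and at 4.95 and 5.9 CPM in organoids.

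The same genes were then read within LipoFBs and within MatrixFBs. In LipoFBs, Lrat and Aldh1a1 were lower after bleomycin in both experiments, by less than in FBs as a whole. Lrat stood at 241 (227 to 256) and 101 (89.6 to 114) CPM in single-dose LipoFBs, 2.38-fold lower (2.08 to 2.73), and at 243 (238 to 248) and 148 (143 to 154) CPM in repetitive LipoFBs, 1.64-fold lower (1.57 to 1.71). Aldh1a1 was 1.71-fold lower (1.63 to 1.79) after a single dose (1553 and 908 CPM) and 2.03-fold lower (2 to 2.07) after repetitive dosing (1689 and 832 CPM). Lrat passed the limit in the single-dose LipoFBs and Aldh1a1 in the repetitive ones, and the other value of each fell short of it. In LipoFBs of the single-dose experiment, 1 of 6 members was lower and 0 higher, where 3.94% of 11385 genes were lower and 7.2% higher; after repetitive dosing 1 of 8 was lower and 1 higher, where 1.45% of 16857 were lower and 5.13% higher. The one higher was Crabp1, with 10 and 34 UMIs, whereas in repetitive MatrixFBs it had 18 and 12 UMIs, a ratio of 0.39 (0.171 to 0.855). After bleomycin, LipoFBs also carried more of the injured-FB markers: the 6 of them summed to 219 and 2749 CPM in single-dose LipoFBs and to 161 and 2010.2 in repetitive ones, none at 0, while the 9 LipoFB markers that define the gate summed to 5258 and 4775 CPM and to 8438 and 7165. The 7 MyoFB markers summed to 160.4 and 1356 CPM and to 351 and 1072, with 1 at 0 in each PBS library. The 9 immune markers summed to 15.3 and 45.1 CPM, with 1 at 0 in PBS, and to 4.26 and 97.8, none at 0. Whether these markers bear on the levels of Lrat and Aldh1a1 was not tested.

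Rbp4 and Adh7 were lower past the limit in MatrixFBs in both experiments and under the limit in LipoFBs in both. In LipoFBs the ratios of bleomycin over PBS were 0.519 (0.372 to 0.713) and 1.14 (1.04 to 1.24) for Rbp4 and 0.494 (0.227 to 0.992) and 1.04 (0.827 to 1.29) for Adh7, single dose first. The single-dose LipoFB levels of Rbp4, 37 and 19.2 CPM, lay within the intervals of the immune barcodes, 16.7 (3.45 to 48.9) and 12.9 (0.326 to 71.8) CPM on 3 and 1 UMIs. Those of Adh7, 8.23 and 4.06 CPM, were below what a count of 0 allows there, and in repetitive PBS the LipoFB level of 5.95 (5.24 to 6.72) CPM just overlapped the 1.47 (0.178 to 5.31) CPM of immune barcodes. In MatrixFBs Rbp4 went from 447 (411 to 485) to 123 (108 to 138) CPM after a single dose, 3.64-fold lower (3.14 to 4.23), and from 407 (396 to 418) to 163 (157 to 168) CPM after repetitive dosing, 2.5-fold lower (2.4 to 2.62). Adh7 was 4.93-fold lower (3.56 to 6.93) (115 and 23.3 CPM) and 2.6-fold lower (2.38 to 2.84) (104 and 39.8 CPM). In FBs as a whole both passed the limit only after a single dose. Aldh1a1 was lower in MatrixFBs as well, 2.49-fold lower (2.24 to 2.77) and 2.26-fold lower (2.2 to 2.33), and Lrat was 3.22-fold lower (2.49 to 4.18) and 2.01-fold lower (1.87 to 2.17), the last a log2 ratio that rounds to -1 and, with 1 CPM added to each level, fell just short of the limit. Aldh1a2 was higher within MatrixFBs, at 20.9 (13.7 to 30.3) and 57.9 (48.1 to 69) CPM after a single dose, 2.78-fold higher (1.82 to 4.38), and 18.5 (16.2 to 21) and 37.5 (34.9 to 40.1) CPM after repetitive dosing, 2.02-fold higher (1.75 to 2.35); the second, with a log2 ratio of 0.98, was just under the limit. Rdh10 was under the limit in both subsets, but in single-dose MatrixFBs its log2 ratio was 1.20, past the limit, with at least 4 MatrixFB markers required. Its ratio was 1.15 (0.617 to 2.12) and 1.26 (1.07 to 1.48) in LipoFBs and 2 (1.13 to 3.75) and 1.61 (1.34 to 1.95) in MatrixFBs, single dose first, and in all single-dose FBs its log2 ratio was 0.96, under the limit, when each cell was weighted alike. Immune barcodes held 4.41 (1.62 to 9.61) and 3.9 (1.69 to 7.7) CPM of Rdh10 in the repetitive libraries, the first an interval that overlaps the 9.38 (8.49 to 10.3) CPM of LipoFBs. They held no Rdh10 UMI in the single-dose libraries, where the LipoFB and MatrixFB levels were below what a count of 0 allows.

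In single-dose MatrixFBs 4 of 6 members were lower and 1 higher, where 4.19% of 10851 genes were lower and 6.99% higher. In repetitive MatrixFBs 3 of 9 were lower and 0 higher, where 1.23% of 16049 were lower and 3.33% higher. Injured-FB, MyoFB and immune markers were higher in MatrixFBs after bleomycin, but not every other class was. The 9 LipoFB markers were lower, at 1669 and 941 CPM after a single dose and 2546 and 2022 after repetitive dosing, none at 0. Epithelial markers were lower after a single dose, 165 and 69.55 CPM, and higher after repetitive dosing, 14.8 and 35.45, some of them at 0. The 6 injured-FB markers summed to 279 and 1428 CPM in single-dose MatrixFBs and to 239.9 and 1089 in repetitive ones, none at 0. The 7 MyoFB markers summed to 84.2 and 851 CPM and to 88.9 and 667, with 1 and 2 of them at 0 in the PBS libraries. The 9 immune markers summed to 17 and 38.3 CPM, with 4 and 2 at 0, and to 4.45 and 342, none at 0. Their part in the ratios of Rbp4, Adh7 and the other members was not tested. MatrixFBs are the subset with the most Rbp4 and Adh7, and their share of FBs was 28.7% in single-dose and 46.2% in repetitive bleomycin. The part of these shares in the ratios over all FBs was not tested. The MatrixFBs of repetitive bleomycin were shallow, with a median of 2409 UMIs against 10564 in repetitive PBS. With at least 4 MatrixFB markers required in place of 3, a check added after the data were seen, the log2 ratios were -1.40 for Rbp4 and -1.44 for Adh7 in the repetitive MatrixFBs, close to -1.32 and -1.36. The share of MatrixFBs with an Rbp4 UMI after thinning was 38.8% and 16% in the single-dose libraries and 35.7% and 19.8% in the repetitive ones. Immune barcodes were at 2.92% and 3.5% in the single-dose libraries and at 0.643% and 0.31% in the repetitive ones.

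**Figure D4:**
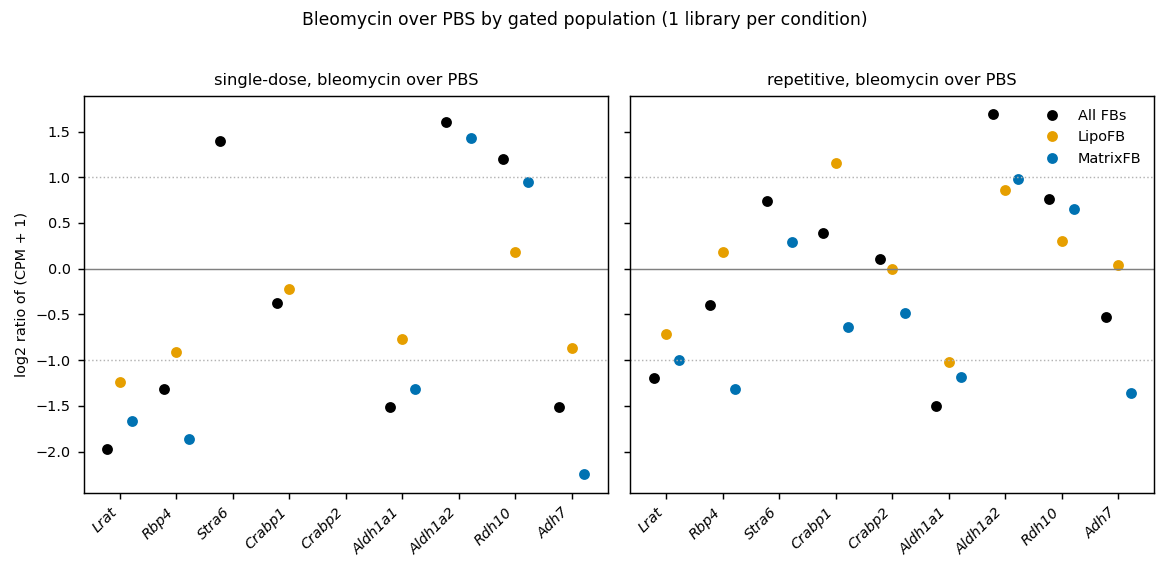
Log2 ratio of (CPM + 1), bleomycin over PBS, of each gene in all FBs (black), LipoFBs (orange) and MatrixFBs (blue), for the single-dose (left) and repetitive (right) experiments; dotted lines mark 2-fold, and genes under 10 UMIs are not drawn. Rbp4 and Adh7 lie lowest in MatrixFBs, Lrat and Aldh1a1 lie below 0 in each population drawn, and Aldh1a2 lies above 0 in each.

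Bleomycin libraries also held injured FBs, which carry markers such as Sfrp1 and Saa3, and MyoFBs, which carry Cthrc1 and Postn. Both subsets numbered under 20 cells in the PBS libraries, so their levels are set beside the other subsets of their own library. MyoFBs had the least Lrat and Aldh1a1 of the main subsets. Lrat stood at 6.8 (3.11 to 12.9) CPM in 63 MyoFBs of single-dose bleomycin and 6.01 (3.67 to 9.28) CPM in 285 MyoFBs of repetitive bleomycin, against 43.3 and 93.1 CPM in injured FBs and 101 and 148 CPM in LipoFBs. Aldh1a1 stood at 128 (109.9 to 149) and 161 (147 to 175) CPM in MyoFBs, 338 and 397 CPM in injured FBs and 908 and 832 CPM in LipoFBs. For both genes the order LipoFB, injured FB, MyoFB was the same in the 2 experiments with no overlap of intervals. For Lrat in single-dose bleomycin, injured FBs and MatrixFBs (42.9 CPM) could not be told apart within their intervals. Immune barcodes held 90.2 (36.3 to 186) CPM of Aldh1a1 in single-dose bleomycin, on 7 UMIs, and 13.2 (8.69 to 19.2) in repetitive bleomycin. The MyoFB level of Aldh1a1 lay within the interval of immune barcodes after the single dose and above it after repetitive dosing. For Lrat, immune barcodes held 0 (0 to 47.5) and 1.46 (0.302 to 4.28) CPM, intervals that overlap those of MyoFBs. Injured FBs of single-dose bleomycin carried more summed MyoFB markers than injured-FB markers, 5730.3 against 4701 CPM, whereas those of repetitive bleomycin carried 2930.3 against 6925.

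Of the scarce genes, Stra6 and Crabp2 stood at a higher level in MyoFBs than in FBs as a whole, on few UMIs. MyoFBs held 18 of the 45 Stra6 UMIs and 15 of the 28 Crabp2 UMIs of repetitive bleomycin FBs, though they were 3.36% of those FBs. Their levels were 5.41 (3.2 to 8.54) CPM for Stra6 and 4.5 (2.52 to 7.43) CPM for Crabp2. One cell held 10 of the Crabp2 UMIs. In single-dose bleomycin, MyoFBs held 6 of 16 Stra6 UMIs and 5 of 7 Crabp2 UMIs. Crabp1 had no UMI in the MyoFBs of either library. Rdh10 was highest in MyoFBs among LipoFBs, MatrixFBs, injured FBs and MyoFBs of both bleomycin libraries, at 34 (24.8 to 45.5) and 26.7 (21.5 to 32.9) CPM, although its interval overlapped that of MatrixFBs in both, at 24.7 (18.5 to 32.4) and 20.1 (18.2 to 22.1) CPM, and that of injured FBs in repetitive bleomycin, at 20.4 (16.9 to 24.3) CPM. Among the same 4 subsets Aldh1a2 was highest in MatrixFBs, with MyoFBs at 13.6 (8.06 to 21.5) and 10.2 (7.07 to 14.3) CPM and injured FBs at 2.78 (1.12 to 5.73) and 1.67 (0.8 to 3.07) CPM.

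Mesothelial cells, which line the lung surface, were gated by at least 3 of Msln, Upk3b, Lrrn4, Upk1b, Wt1, Bnc1 and Gpm6a. They numbered 1 and 7 in the single-dose libraries and 4 and 9 in the repetitive ones, and were not counted as FBs. They also carried MatrixFB markers, which summed to 3979 CPM in single-dose bleomycin, 14276 in repetitive PBS and 6026 in repetitive bleomycin, with 1 of the 6 at 0 in repetitive PBS, beside 2353, 2822 and 2514 CPM of mesothelial markers. The part of these markers in the level of Aldh1a2, which MatrixFBs also carry, was not tested. Aldh1a2 stood at 122 (68.6 to 202) CPM in single-dose bleomycin, 62.2 (12.8 to 182) in repetitive PBS and 114 (72.4 to 171) in repetitive bleomycin, on 15, 3 and 23 UMIs. Rdh10 stood at 278 (192 to 388), 145 (58.4 to 299) and 179 (125 to 248) CPM. Its intervals lay above those of every FB subset of at least 20 cells in the same library. Lrat, Crabp1 and Crabp2 had no UMI in the 21 mesothelial cells of the 4 libraries, and the Lrat interval reached 18.3 CPM in repetitive bleomycin. With so few cells, PBS and bleomycin were not compared. The sorted cells also held 34 epithelial barcodes in repetitive PBS and 22 in repetitive bleomycin. There 2 of 3 members were higher after bleomycin and 0 lower, where 7.27% of 7991 genes were higher and 14.3% lower. They were Aldh1a1, at 274 (233 to 321) and 651 (584 to 722) CPM, with 204 of its 352 bleomycin UMIs in 1 barcode, and Rbp4, at 33.4 (20.1 to 52.2) and 72.1 (51.3 to 98.6) CPM. In the endothelial and immune barcodes of the same libraries Aldh1a1 went the other way past the limit. It had 22 and 0 UMIs in endothelial barcodes and 29.4 and 13.2 CPM in immune ones.

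A list of 56 other genes of the retinoid pathway set these values in context; no member is on it, and its roles run from carriers to targets. In single-dose FBs, 36 of them had enough UMIs, of which 3 were lower (Pnpla2, Rxrg and Hoxb5) and 5 higher (Fabp5, Lpl, Aldh1a3, Cyp26b1 and Rarres1), where all genes gave 3.6% and 9.42%. After repetitive dosing, 47 had enough, of which 1 was lower (Hoxa5) and 6 were higher, where all genes gave 1.48% and 5.54%. Genes on the list that differed in 1 experiment were named after their values had been seen. The median log2 ratio of the list was -0.21 and 0.02. In all, 4 genes were higher in both experiments and none was lower in both. The share of all genes past the limit in both was not counted, so this overlap is a description only. Cyp26b1, which breaks down retinoic acid, had 3 and 100 UMIs in single-dose FBs, a ratio of 20.2 (6.71 to 99.5), and went from 1 to 8.38 CPM after repetitive dosing, 8.35-fold higher (6.35 to 11.2). Aldh1a3, a further retinal dehydrogenase of its family, went from 5.57 to 14.9 CPM and from 4.69 to 12.4 CPM, 2.68-fold higher (1.83 to 4.04) and 2.64-fold higher (2.29 to 3.04). Cyp26b1 was also over 2-fold higher within LipoFBs and within MatrixFBs of both experiments, whereas Aldh1a3 was not in either. Fabp5, a fatty acid carrier that also binds retinoic acid, went from 5.57 to 53.5 CPM and from 4.34 to 16.6 CPM. Lpl, which releases fatty acids from lipoproteins, went from 87.3 to 524 CPM and from 96.8 to 555 CPM. These 2 genes of lipid uptake were likewise past the limit within both subsets. In the repetitive experiment both were also higher past the limit in immune barcodes and lower past it in epithelial ones. Immune markers read in FBs went from 4.74 to 189.9 CPM there, and their part in the levels of Fabp5 and Lpl was not tested.

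Within most roles, the gene counted most in PBS FBs stayed under the limit. Among the receptor genes Rarg was counted most, at 49 and 35.7 CPM and at 43.8 and 43.5 CPM, and among co-factors Ncor1, at 126 and 116 CPM and 213 and 204 CPM. Neither reached 2-fold. The same held for Adh1 among the genes that interconvert retinol and retinal (423 and 332 CPM, then 187 and 199.9), for Rarres2 among target genes (1215 and 799.9 CPM, then 925 and 753) and for the ester hydrolase Ces1d, a LipoFB gate marker (594 and 429.7 CPM, then 602 and 428). The carotene-cleaving Bco1 was under 1 CPM in all 4 libraries. Rarb, whose promoter was shown with those of the members, had 1 and 11 UMIs in single-dose FBs and went from 1.52 to 6.59 CPM after repetitive dosing, 4.33-fold higher (3.42 to 5.52); it was named for its promoter and not by the rule for listed genes.

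**Figure D5:**
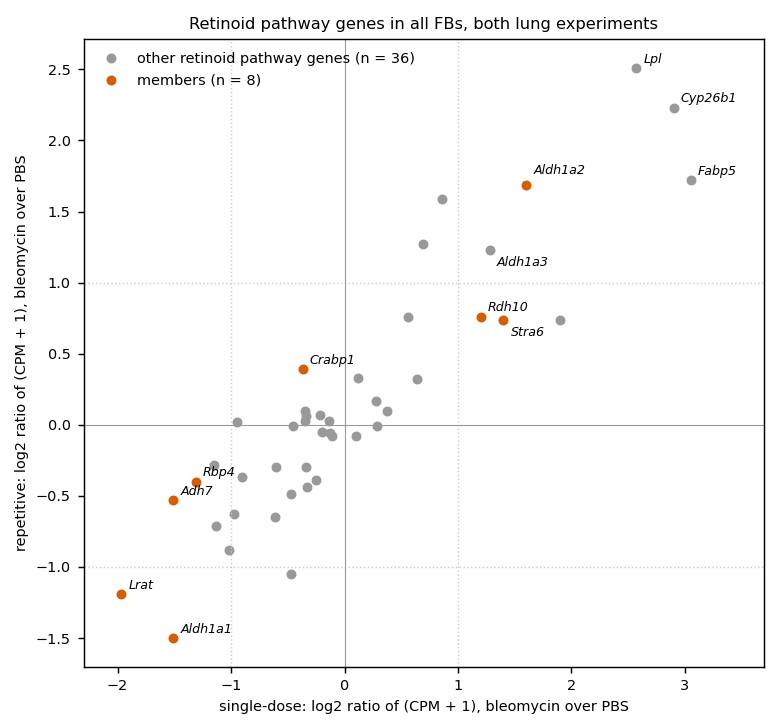
Log2 ratio of (CPM + 1), bleomycin over PBS, in all FBs of the single-dose (x) and repetitive (y) experiments, for 8 members (orange) and 36 listed pathway genes (grey) with at least 10 UMIs in each experiment; dotted lines mark 2-fold. Lrat and Aldh1a1 lie at the lower left, Aldh1a2 with Cyp26b1, Lpl, Fabp5 and Aldh1a3 at the upper right.

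FBs kept for 2 weeks in organoids had another profile. Almost no barcode there passed the LipoFB gate (1 in each library) and the MyoFB gate held 54.6% of normal and 54.1% of fibrogenic FBs. Median depth was 49682 UMIs in normal and 14152 in fibrogenic FBs. Aldh1a1 stood at 4.95 (4.54 to 5.39) CPM in normal FBs and 5.9 (5.52 to 6.3) in fibrogenic ones, and Lrat at 15.8 (15.1 to 16.6) and 5.25 (4.89 to 5.63) CPM. Aldh1a2 stood at 61.7 (60.2 to 63.2) and 127 (126 to 129) CPM and Rdh10 at 80.5 (78.8 to 82.2) and 94.4 (92.9 to 96) CPM. Set beside FBs of fresh lung, the first 2 genes were lower and the last 2 higher in both organoid libraries than in any of the 4 lung libraries. Culture and co-culture with AEC2s both differ between these sets, which were also made as separate libraries, and these cannot be told apart. Epithelial markers were higher in organoid FBs, the 8 of them summing to 421 and 542 CPM, none at 0.

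Fibrogenic FBs differed from normal FBs in 4 of the 9 genes past the limit, 2 lower and 2 higher, where 0.669% of 19279 genes were lower and 0.207% higher. Lrat was 3.01-fold lower (2.76 to 3.27) in fibrogenic FBs, and Adh7 was 3.56-fold lower (2.96 to 4.31) at 3.73 (3.37 to 4.11) and 1.05 (0.888 to 1.22) CPM. Aldh1a2 was 2.06-fold higher (2.01 to 2.12). The 9 LipoFB markers summed to 303 CPM in normal and 184 CPM in fibrogenic FBs, with 0 and 1 of them at 0, and the 7 MyoFB markers to 24482 and 17214 CPM, none at 0. Their part in these ratios was not tested. Of the 4 genes past the limit, Lrat, Adh7 and Aldh1a2 lay in the direction seen after bleomycin in the lung. For Crabp1 the lung FB ratios were 0.731 (0.434 to 1.24) after a single dose and 1.96 (1.22 to 3.2) after repetitive dosing. Aldh1a1, lower in both lung experiments, had a ratio of 1.19 (1.07 to 1.33) in organoid FBs. Crabp1 was 4.46-fold higher (3.98 to 5), at 3.28 (2.95 to 3.64) and 14.6 (14 to 15.2) CPM. One fibrogenic cell held 200 of its 2196 UMIs, and 6.38% (5.61 to 7.21) of fibrogenic cells held any, against 4.26% (3.43 to 5.23) of normal cells. After thinning the shares were 1.32% and 0.434%. Crabp2 was at 13.3 (12.6 to 14) and 21.7 (20.9 to 22.4) CPM, 1.63-fold higher (1.53 to 1.74), and it too was carried by few cells, 7.55% (6.44 to 8.78) and 8.47% (7.6 to 9.42), or 1.42% and 2.21% after thinning. Most Crabp2 lay in the MyoFB gate, 1261 of 1432 and 2832 of 3254 UMIs, as did Stra6, 388 of 414 and 489 of 524, whose level was 3.84 (3.48 to 4.22) and 3.49 (3.2 to 3.8) CPM.

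The organoid FBs that passed the injured-FB gate carried far more MyoFB markers than injured-FB markers, 28480.5 against 3716 CPM in normal and 17452 against 3058 in fibrogenic cells, where the MyoFB gate held 23903 and 17505 CPM of MyoFB markers. MyoFB markers thus did not set the 2 gates apart in culture. Injured-FB markers did differ, at 1267 and 1231 CPM in the MyoFB gate of normal and fibrogenic cells. Values are given by gate only. Lrat was 2.92-fold lower (2.52 to 3.39) in the injured-FB gate and 2.73-fold lower (2.43 to 3.07) in the MyoFB gate. Crabp1 was 6.04-fold higher (4.74 to 7.78) in the PMP gate, 4.13-fold higher (3.56 to 4.81) in the MyoFB gate and 1.5-fold higher (1.09 to 2.06) in the injured-FB gate, the last under the limit. Aldh1a2 was 3.3-fold higher (3.05 to 3.56) in the injured-FB gate and 1.91-fold higher (1.85 to 1.98) in the MyoFB gate, again the last under the limit. Each of these genes kept its direction in the gates named. The MatrixFB gate held 9 normal and 20 fibrogenic cells, and LipoFBs 1 of each, so those subsets were not compared. Rbp4, Aldh1a1, Rdh10 and Stra6 differed by less than 2-fold in organoid FBs, with ratios of 0.702 (0.672 to 0.733), 1.19 (1.07 to 1.33), 1.17 (1.14 to 1.21) and 0.909 (0.798 to 1.04). Rbp4 was more abundant in the organoid epithelium than in the FBs, at 130.4 (128 to 133) and 99.4 (96.9 to 102) CPM against 38.4 (37.2 to 39.5) and 26.9 (26.1 to 27.8) CPM. In that epithelium 1 of 8 members was higher with fibrogenic FBs and 0 were lower, where 0.228% of 18006 genes were higher and 0.106% lower: Aldh1a2, at 0.699 (0.528 to 0.908) and 2.62 (2.23 to 3.06) CPM. Immune barcodes, 4 and 12 in number, held 0 and 2 Aldh1a2 UMIs, the second 2.98 (0.36 to 10.8) CPM, an interval that covers the epithelial level, so that level was not told apart from free RNA of the FBs. Lrat, Adh7, Stra6, Crabp1, Crabp2 and Aldh1a2 stood at 2.62 CPM or less in that epithelium. Of the 56 listed pathway genes, 47 had enough UMIs in organoid FBs, of which 0 were higher and 2 lower in fibrogenic FBs, where 0.207% of all genes were higher and 0.669% lower. The 2 were Lpl (1004 and 415 CPM) and Rarres2 (105 and 42.5 CPM).

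Across the 12 library-by-subset groups of at least 50 lung FBs, Lrat and Aldh1a1 varied together (Pearson r = 0.93 on log2(CPM + 1)), as did Rbp4 and Adh7 (r = 0.93). Rdh10 ran against Aldh1a1 (r = -0.95). These r values describe 12 points that share 4 libraries and their depths, and they are not tests. By the same measure over 10945 genes, the genes most like Lrat included Fgfr3 (r = 0.982) and Irf8 (r = 0.97). Those most like Aldh1a1 were G0s2 (r = 0.988), Mettl7a1 (r = 0.983) and Tns1 (r = 0.982). For Aldh1a2 they were Aldh1a3 (r = 0.98), Prss23 (r = 0.976) and Sfrp4 (r = 0.972), so the nearest pattern to one retinal dehydrogenase gene was that of another. Rbp4 was closest to Chadl (r = 0.965), Spock2 (r = 0.96) and Ngb (r = 0.959), and Adh7 to Chrd (r = 0.971), Foxd1 (r = 0.965) and Scin (r = 0.957). Rdh10 was closest to Tnfsf9 (r = 0.952), Galnt10 (r = 0.951) and Cx3cl1 (r = 0.949). Stra6 (Kcnn4 (r = 0.958), Scx (r = 0.956), Mmp9 (r = 0.952)) and Crabp1 (Ppt1 (r = 0.914), Rmdn3 (r = 0.899), Med16 (r = 0.875)) rest on few UMIs, and Crabp2 reached 5 CPM in none of the 12 groups.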

How the data were processed

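The 6 libraries were 10x Chromium 3′ single-cell libraries. The authors aligned reads to mm10 with Cell Ranger 3.0.1 (and used Seurat 3 afterwards) and deposited raw UMI counts per gene and cell barcode, which were the only values used; no per-sample column was left out.

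A marker was present at 1 or more UMIs per 10000 in a barcode, except that any UMI counted for the 7 mesothelial markers, a choice made after the data were seen. Lineage and subset needed 3 markers, and a barcode with 3 markers each of FBs and of an epithelial, endothelial or immune lineage, or of 2 other lineages, was set aside as mixed, which also stood in for doublet removal; no doublet caller was run. A barcode was dropped when its mitochondrial share exceeded the median of its gate by over 3 scaled median absolute deviations. Counts were summed per library and gate into CPM; fold ratios and their intervals used plain CPM and log2 ratios (CPM + 1). Intervals are exact Poisson for levels, exact Clopper-Pearson for shares and exact conditional binomial for ratios, at 95%, and cover counting error only. With 1 library per condition no test between conditions was made.

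The members and lists were chosen with earlier results of these data known. Named are all 9 members, listed pathway genes past the limit the same way in both lung experiments, the gene of highest PBS level in each role, the 3 genes most like each member in pattern, and gate markers; other names are marked as chosen after seeing values. Some genes these rules name are not reported here. Alternatives covered the pseudocount, UMI minimum, centring, gates, depth and weighting of cells. Python 3.11.15, numpy 2.4.6, scipy 1.17.1, pandas 2.3.3, biopython 1.88 and matplotlib 3.10.9 were used, and the scripts were tested on simulated counts.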

Additional observations from a re-analysis of the deposited data

Results flagged for a closer look

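Aldh1a1 in FBs had a ratio of bleomycin over PBS of 0.351 after a single dose and 0.354 after repetitive dosing, while the ratio of fibrogenic over normal FBs in organoids was 1.19 (1.07 to 1.33) and did not reach 2-fold. The 3 ratios thus lie on both sides of 1, and by gate the organoid ratio was 0.877 (0.669 to 1.15) in the injured-FB gate, 1.26 (1.10 to 1.45) in the MyoFB gate and 1.43 (1.01 to 2.05) in the PMP gate; the organoid levels of 4.95 and 5.9 CPM were below the 11.8 and 14 CPM of the epithelium. Rbp4 in LipoFBs had a ratio of 0.519 after a single dose and 1.14 after repetitive dosing, again on opposite sides of 1, although its single-dose LipoFB levels of 37 and 19.2 CPM lay within the intervals of immune barcodes, 3.45 to 48.9 and 0.326 to 71.8 CPM. With 1 library a condition neither difference was tested.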

How the results depend on the processing

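No paired analysis was possible because each condition was 1 library, which also means that no library could be left out. The counts read were those of members and pathway genes past the limit and of members with the same higher subset in both PBS libraries. Of these, 116 values under an alternative stayed within 1.5 times the reported count and 28 did not. Of the log2 ratios of single members, 218 stayed within the counting error of the reported ratio and 71 moved past it. No member's ratio past the limit changed direction. In single-dose FBs, the count of pathway genes lower was 5 with centring on the median gene, 5 over all barcodes, 5 with each cell weighted alike and 5 in MatrixFBs alone, and 6 in MatrixFBs with at least 4 markers; those higher numbered 3 in MatrixFBs and 2 with at least 4 markers. Members lower after a single dose numbered 1 in LipoFBs alone, with 3 or 4 markers required, and members higher numbered 0 there, 1 with each cell weighted alike and 1 in MatrixFBs. In the repetitive libraries, members higher numbered 2 with a pseudocount of 0.1 CPM and 0 in MatrixFBs under either marker minimum, and members lower numbered 1 in LipoFBs under either minimum. Pathway genes lower there numbered 2 over all barcodes, 2 under the stricter gate, 2 in barcodes of at least 2000 UMIs and 0 in MatrixFBs with at least 4 markers, where 3 were higher. In organoids, pathway genes higher numbered 1 with a pseudocount of 0.1 CPM, 1 over all barcodes, 1 under the stricter gate and 3 with each cell weighted alike, and 1 member was lower over all barcodes. The causes were not tested. The MatrixFB settings and both 4-marker settings were chosen after seeing the data. LipoFBs or MatrixFBs alone were not run in organoids, where they numbered too few cells. Values of Stra6, Crabp1 and Crabp2 in the lung rest on few UMIs in few cells.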
